A study of Oryza sativa with 4 samples.

Results

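The HOX genes of rice encode homeodomain transcription factors, and those described here belong to the homeodomain-leucine zipper (HD-Zip) family of plants. They were taken by name, as every gene whose symbol or synonym reads HOX plus a number once an Os prefix is removed. The gene table names 26 such genes, and 25 of them have a probe set among the 17905 genes measured on Affymetrix arrays. A probe set is a group of short probes to one transcript, read here as a log2 signal. HOX3 has no named probe set and was not analysed here. Where a gene had several probe sets, the one with the highest mean signal stands for it. Of the 25 genes, 19 have a single probe set and 6 have several. For 8 of them the representative set carries the suffix _x_at or _s_at, read here as marking probes able to bind several transcripts.

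The samples are leaves of Oryza sativa cv. Senia plants at the second vegetative (V2) stage, raised with 16 h of light and 8 h of dark. The 30% CO2 group comprised 2 samples from plants closed in bags into which CO2 was injected. The control group comprised 2 samples from plants left in normal atmosphere, labelled 0.04% CO2. Both groups spent 6 h in the dark at 27 °C, and each sample pooled the leaves of 10 plants. The labels do not say whether control plants were bagged, so the bag and the gas cannot be told apart. The design asks what 30% CO2 does to leaf transcripts.

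HD-Zip proteins bind DNA as dimers, through a homeodomain joined to a leucine zipper. Class I members are known for responses to water deficit and for growth control, class II members for auxin and shade responses and often for repression, and class III members for the upper face of the leaf, vascular tissue and meristems, where a microRNA limits their transcripts. In this text the class of each HOX gene follows published naming and was not checked against protein sequence. No sequence table was supplied, and none is printed.

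The 4 samples had medians between 3.85 and 3.92 on the log2 scale of the deposited signals. Pearson's r across probe sets was 0.989 between the CO2 samples, 0.993 between the controls and 0.951 to 0.968 between the groups, with probe sets not being independent replicates. Leaf identity was visible in the signals of RBCS (Rubisco small subunit), between 13.63 and 13.65. The RBCS1 entry of the same list was dim, between 2.74 and 3.30. Of 6 leaf genes 2 fell, beside 18.8% of all genes. They were RCABP89 and RCABP69, which encode chlorophyll-binding proteins. All 6 leaf genes were lower in both CO2 samples than in both controls, as were 39.8% of all genes. The mean log2 signal of the leaf list was 11.43 and 11.44 in controls against 11.02 and 10.92 under CO2. Of 3 root genes IRT2, an iron transporter, rose, beside 12.4% of all genes. Of 6 genes of dividing cells and meristems 0 passed, where 31.2% of all genes did. Their mean log2 signal was 4.09 and 3.53 in controls and 4.06 and 3.80 under CO2. Of 2 vascular genes, SWEET11 and SUT1, which encode sugar transporters, 0 passed, beside the same 31.2% of all genes. Both were higher in both CO2 samples than in both controls, as were 27.7% of all genes. The mean log2 signal of SWEET11 and SUT1 was 8.81 and 7.89 in controls and 9.15 and 9.04 under CO2, with control replicate 2 the lowest. That low mean came from SWEET11, with 8.68 and 6.79 in controls, while SUT1 had 8.93 and 8.98 there. The part of these shifts in the HOX values was not tested. In leaf samples of this kind, fewer cells of a type and less RNA per cell cannot be told apart.

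Among the HOX genes, 5 rose and 2 fell under 30% CO2, and 18 did not pass. HOX21, HOX12, HOX7, HOX32 and HOX5 rose, and HOX1 and HOX15 fell. The test was limma's moderated comparison fitted on all 57194 probe sets, with Benjamini-Hochberg adjustment over the 17905 genes and a threshold of 0.05. Over all genes 12.4% were called higher and 18.8% lower, so that 5 of 25 lies above the first share and 2 of 25 below the second. Taken in either direction, 7 of 25 stand beside 31.2% of all genes, which is near the background. The median log2 fold change was 0.08 over the 25 HOX genes and -0.08 over all genes, and the median size of change was 0.47 against 0.39. HOX changes ran from -1.54 to 1.48 on the log2 scale. Of the 25 HOX genes 6 both passed and changed at least 2-fold, beside 16.8% of all genes.

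**Figure D1:**
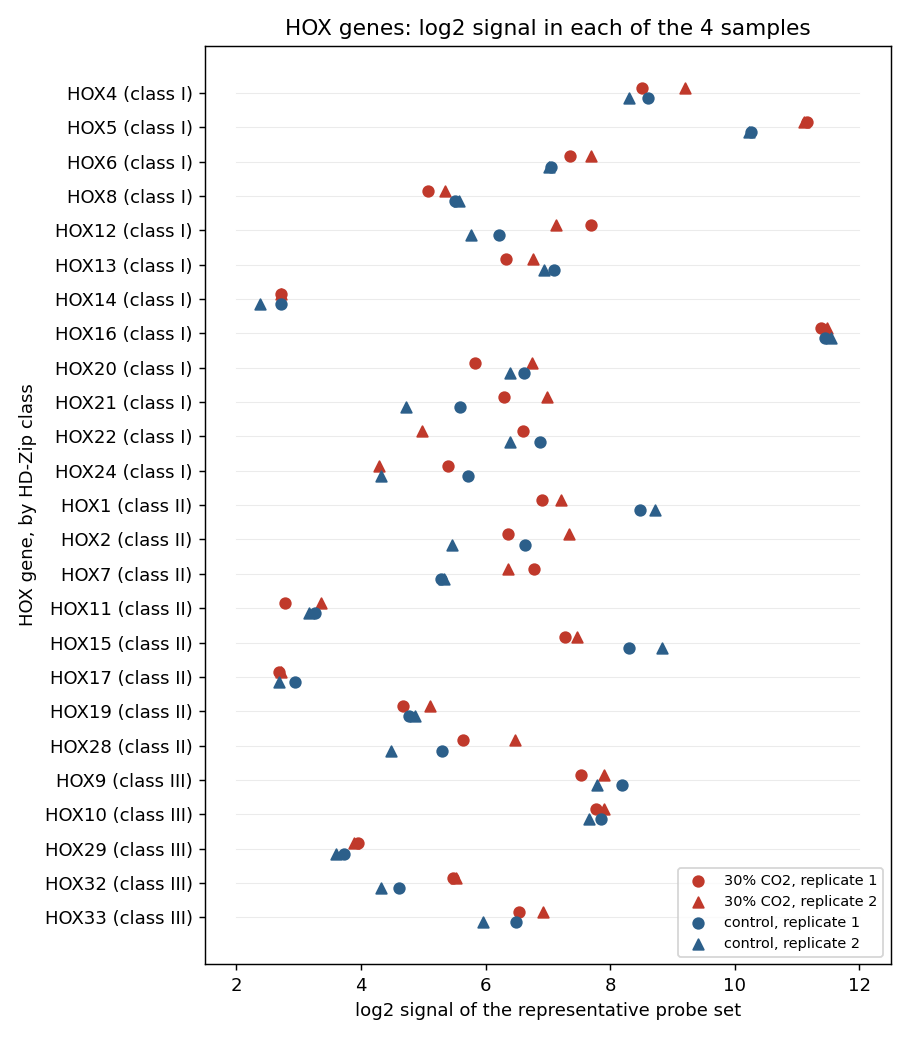
Log2 signal (x axis) of the representative probe set of each of the 25 HOX genes (y axis, grouped by HD-Zip class) in the 4 samples, with red for 30% CO2, blue for control, circles for replicate 1 and triangles for replicate 2. In HOX1 and HOX15 both blue controls lie to the right of both red CO2 samples, and in HOX5, HOX7, HOX12, HOX21 and HOX32 to the left. Signals of different probe sets are not comparable as amounts of transcript.

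Both CO2 samples lay above both controls in 9 HOX genes and below them in 4, beside 27.7% and 39.8% of all genes. Together these are 13 of 25, where 67.5% of all genes had groups that did not overlap. Besides the 7 that passed, these were HOX6, HOX28, HOX29 and HOX33, where the CO2 samples were above, and HOX8 and HOX13, where they were below. The HOX genes' median gap between the samples of a group was 0.39 under CO2 and 0.26 in controls, against 0.23 and 0.17 over all genes. For 4 of the 25 (HOX11, HOX14, HOX17 and HOX29) the mean signal was below the median of all probe set means, and the table gives no detection calls. In HOX14, 3 of the samples hold the same value, 2.72.

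Class II held both genes that fell. HOX1 (LOC4349388) encodes a repressor known in rice for the development of vascular tissue and, together with HOX28, for the angle of tillers. Its log2 signal was 8.47 and 8.72 in controls and 6.91 and 7.21 under CO2. Every CO2 sample was below every control, by at least 1.26. HOX1 went from 8.60 ± 0.18 (SD, n = 2) to 7.06 ± 0.21, a log2 fold change of -1.54 ± 0.17 (SE; limma adjusted p = 0.00539), which is a 2.90-fold fall.

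HOX15 (LOC4347946), a further class II gene, had signals of 8.30 and 8.84 in controls and of 7.28 and 7.47 under CO2. The groups did not overlap, and the controls were further apart than the CO2 samples. Its log2 fold change was -1.19 ± 0.22 (limma adjusted p = 0.0172), on its single probe set, whose probes may bind several transcripts. HOX15 did not pass without CO2 replicate 1 (-1.10, limma adjusted p = 0.117) or CO2 replicate 2 (-1.29, limma adjusted p = 0.0732).

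HOX7 (LOC4329705) moved the other way within the same class. Its signal was 5.28 and 5.33 in controls and 6.78 and 6.36 under CO2. The controls were nearly equal, and both CO2 samples stood more than 1 log2 unit above them. HOX7 had a log2 fold change of 1.27 ± 0.18 (limma adjusted p = 0.00888), a 2.41-fold rise. The representative set of HOX7 can bind several transcripts. Its other set, which lacks that suffix, rose as well, by 1.13 (limma adjusted p = 0.0188 over all probe sets).

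HOX2 (LOC4340070) and HOX28 (LOC4340069) are neighbours on the chromosome, with 0 protein-coding genes between them in the gene table. HOX28 had signals of 5.30 and 4.48 in controls and of 5.64 and 6.48 under CO2. Both CO2 samples were above both controls, but the samples within each group differed by 0.84 and 0.82. The log2 fold change of 1.17 (95% interval 0.15 to 2.19) did not pass (limma adjusted p = 0.0823), though it did after quantile normalization (1.25, limma adjusted p = 0.0474). HOX2 had signals of 6.64 and 5.45 in controls and of 6.36 and 7.34 under CO2, so that its groups overlapped. Its log2 fold change was 0.80 (95% interval -0.51 to 2.12, limma adjusted p = 0.285). In both neighbours CO2 replicate 2 was the highest sample and control replicate 2 the lowest.

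The remaining class II genes had small values. HOX11, HOX17 and HOX19 gave log2 fold changes of -0.14, -0.12 and 0.07, and each of their representative sets can bind several transcripts. The other sets of HOX19 differed in sign, with 0.26 and -0.28 (limma adjusted p = 0.424 and 0.501 over all probe sets). HOX11 and HOX17 are among the genes of low signal. Of 8 measured class II genes 1 rose, 2 fell and 5 did not pass, beside 12.4% higher and 18.8% lower of all genes. The median size of change was 0.99 in class II, against 0.39 over all genes.

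HOX1 and HOX28 are known in rice to act on HSFA2D, a heat stress factor gene that they lower. Its values were looked up after the HOX values had been seen. HSFA2D had signals of 9.61 and 9.54 in controls and of 8.78 and 8.53 under CO2. It fell by 0.92 on the log2 scale (SE 0.14, limma adjusted p = 0.0113), with no overlap between the groups. HSFA2D has 2 probe sets, and the values given are of the one with the highest mean signal. The gene table gives the HSFA2D record further names, of an acireductone dioxygenase (ARD), so this set may measure more than the heat stress factor.

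In class I, with 12 measured genes, 3 rose, 9 did not pass and 0 fell, beside 12.4% higher and 18.8% lower of all genes. HOX5 (LOC4345576) had the closest replicates of the genes that changed. Its signal was 10.26 and 10.22 in controls and 11.15 and 11.11 under CO2. The samples of each group differed by 0.04, and the groups lay 0.85 apart at the nearest. HOX5 had a log2 fold change of 0.89 ± 0.12 (limma adjusted p = 0.00771), a 1.85-fold rise. A second, dim probe set of HOX5 gave 0.47 (limma adjusted p = 0.0772 over all probe sets).

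HOX12 (LOC4331956) is known in rice for the emergence of the panicle from the leaf sheath, through the gibberellin-inactivating gene EUI1. Its signal was 6.22 and 5.77 in controls and 7.69 and 7.14 under CO2. Both CO2 samples were above both controls by 0.92 or more. HOX12 rose 2.68-fold (log2 fold change 1.42 ± 0.26, limma adjusted p = 0.017). Without CO2 replicate 1 it did not pass (1.14, limma adjusted p = 0.091). EUI1, also looked up after the HOX values had been seen, had signals of 4.61 and 4.33 in controls and of 4.09 and 4.26 under CO2, with a log2 fold change of -0.29 (95% interval -0.70 to 0.11, limma adjusted p = 0.215).

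HOX21 (LOC4331774) had the largest rise of the HOX genes and wide spread in both groups. Its signal was 5.60 and 4.72 in controls and 6.30 and 6.98 under CO2. The groups did not overlap, with a gap of 0.71 that was smaller than the 0.87 between the controls. The log2 fold change was 1.48 ± 0.37 (limma adjusted p = 0.0401), a 2.80-fold rise on a single set that can bind several transcripts. Adjusted over all 57194 probe sets, HOX21 did not pass (limma adjusted p = 0.0762). It did not pass without CO2 replicate 1 (1.82, limma adjusted p = 0.105) or CO2 replicate 2 (1.14, limma adjusted p = 0.176).

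Of the class I genes that did not pass, HOX4, known in rice for its effect on gibberellin responses and stem length, had signals of 8.60 and 8.30 in controls and of 8.51 and 9.20 under CO2. Its groups overlapped, and the log2 fold change was 0.40 (95% interval -0.29 to 1.10). HOX13 and HOX8 were lower in both CO2 samples than in both controls, with log2 fold changes of -0.47 (95% interval -0.96 to 0.01) and -0.33 (95% interval -0.71 to 0.05). HOX20 and HOX14 gave -0.22 (95% interval -1.05 to 0.61) and 0.17. The representative set of HOX20 can bind several transcripts. The other set of HOX20, which lacks that suffix, gave -0.58 (limma adjusted p = 0.213 over all probe sets). HOX16 had a narrow spread, between 11.38 and 11.54 over the 4 samples. Its log2 fold change of -0.07 had a 95% interval of -0.39 to 0.25. Over all classes, the 95% interval lay within a 2-fold change either way for 11 of the 18 genes that did not pass.

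**Figure D2:**
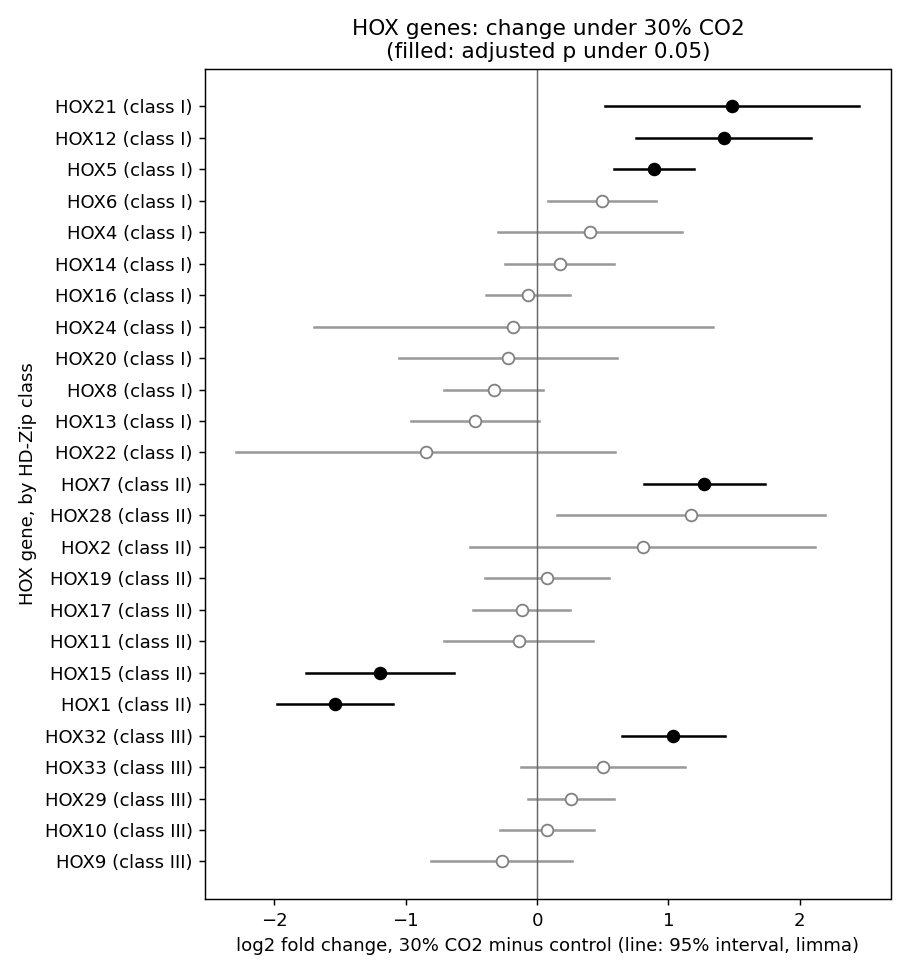
Log2 fold change under 30% CO2 (x axis, CO2 minus control, with limma's 95% interval as a line) of the 25 HOX genes (y axis, grouped by class and ordered by value). Filled points passed an adjusted p of 0.05, with 5 to the right of 0 and 2, both of class II, to the left. HOX22, HOX24 and HOX2 have wide intervals that cross 0.

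HOX22 (LOC4336542), HOX24 (LOC4330155) and HOX6 (LOC4347647) are class I genes known in rice for responding to dehydration and abscisic acid. None of the 3 passed. HOX22 had signals of 6.88 and 6.39 in controls and of 6.60 and 4.98 under CO2. CO2 replicate 1 lay between the controls, and CO2 replicate 2 was 1.62 below replicate 1. The log2 fold change of HOX22 was -0.85 (95% interval -2.29 to 0.59, limma adjusted p = 0.303), and that of CO2 replicate 1 alone was -0.04 against -1.66 for CO2 replicate 2 alone.

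HOX24 had signals of 5.72 and 4.32 in controls and of 5.40 and 4.28 under CO2. Here the samples numbered 1 were the higher ones in both groups, and the groups overlapped nearly in full. HOX24 had a log2 fold change of -0.18 (95% interval -1.70 to 1.34, limma adjusted p = 0.845). HOX6 had signals of 7.04 and 7.01 in controls and of 7.36 and 7.69 under CO2. Both of its CO2 samples were above both controls. The log2 fold change of 0.50 (95% interval 0.09 to 0.91) did not pass (limma adjusted p = 0.0731) but did after quantile normalization (0.62, limma adjusted p = 0.0295).

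HOX22 and HOX24 were the 2 HOX genes whose CO2 samples differed by over 1 log2 unit, and in both replicate 1 was the higher. Other genes known for dehydration or abscisic acid were set beside them. Of 28 such genes, 9 (32.1%) had CO2 replicate 1 above replicate 2 by over 1 log2 unit, where 2.17% of all genes did. RAB16B, a dehydrin gene, had signals of 9.12 and 5.17 under CO2 and of 8.38 and 7.65 in controls. RAB21, a dehydrin gene of the same cluster, had 11.73 and 8.62 under CO2 and 11.78 and 11.31 in controls. In LEA19, which encodes a late embryogenesis abundant protein, the CO2 samples gave 10.32 and 7.44 and the controls 9.77 and 9.18. RAB16B, RAB21 and LEA19 had the widest CO2 gaps of the list. As in HOX22, their CO2 replicate 2 value was below both controls. Among the 9, DHN1 and PP2C51 went the other way, with CO2 replicate 2 above both controls. The values of CO2 replicate 2 were 9.35 in DHN1 (controls 9.17 and 8.41) and 4.20 in PP2C51 (controls 3.36 and 3.71). In the rest of the 9, CO2 replicate 2 was below both controls. Replicate 1 was above replicate 2 in both groups in 17 of the 28 (60.7%), in 5 of the 25 HOX genes and in 20.6% of all genes. The part of water status in these differences between samples was not tested.

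In the comparison of groups, 3 of the 28 dehydration and abscisic acid genes rose, 1 fell and 24 did not pass. Over all genes 12.4% were called higher and 18.8% lower. The median log2 fold change of the list was -0.19, against -0.08 over all genes. All of the calls were of SAPK kinase genes, and none of the other genes of the list passed. The kinase genes SAPK2, SAPK6 and SAPK8 rose by 0.91, 0.81 and 0.45, and SAPK9 fell by 2.57, measured by probes that may bind several transcripts. SAPK8 passed narrowly (limma adjusted p = 0.0465) and not after quantile normalization (0.41, limma adjusted p = 0.0651) or without CO2 replicate 1 (0.50, limma adjusted p = 0.099) or CO2 replicate 2 (0.41, limma adjusted p = 0.11). SAPK2 did not pass without CO2 replicate 1 (0.64, limma adjusted p = 0.0693). SAPK kinases carry the abscisic acid signal to transcription factors. Leaving out CO2 replicate 1 turned these counts into 1 higher and 5 lower.

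**Figure D3:**
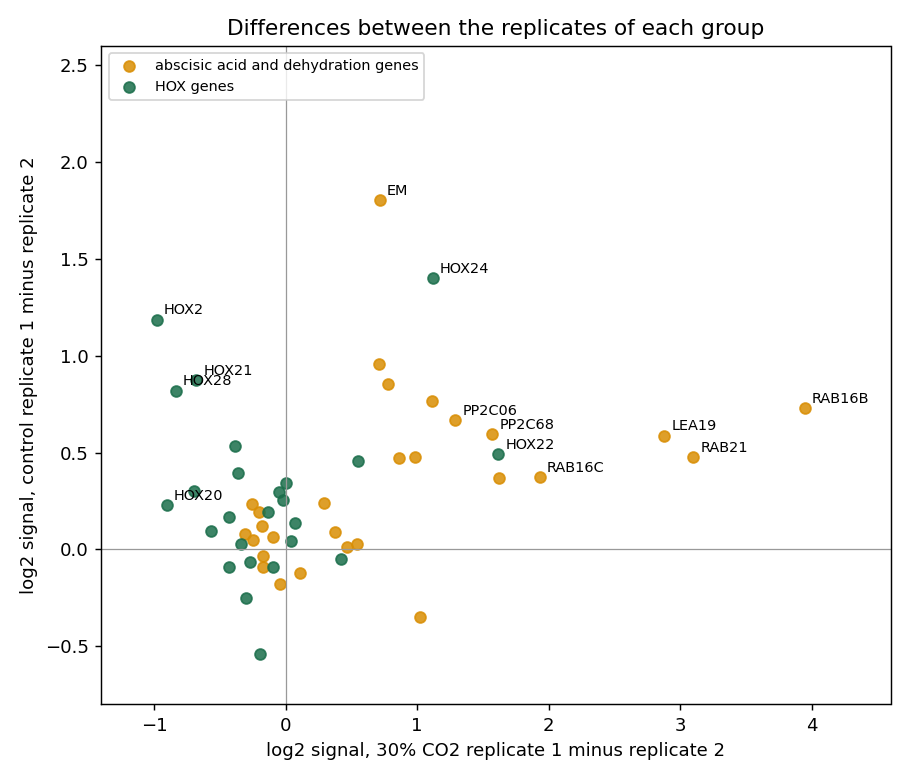
Difference in log2 signal between replicates 1 and 2 under 30% CO2 (x axis) and in controls (y axis) for the 25 HOX genes (green) and the 28 dehydration and abscisic acid genes (orange). HOX22 and HOX24 lie at 1.62 and 1.12 on the x axis, on the side of RAB16B, RAB21 and LEA19, while HOX2, HOX28 and HOX21 lie on the opposite side of 0. HOX6, not labelled, lies at -0.34 on the x axis.

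In class III, 1 of 5 genes rose, 0 fell and 4 did not pass, beside 12.4% higher and 18.8% lower of all genes. HOX32 (LOC4333544), known in rice for narrow and rolled leaves when it is overexpressed, had signals of 4.61 and 4.31 in controls and of 5.47 and 5.52 under CO2. The CO2 samples were nearly equal and lay at least 0.86 above the controls. HOX32 rose 2.05-fold (log2 fold change 1.04 ± 0.15, limma adjusted p = 0.00966). It did not pass without CO2 replicate 1 (1.06, limma adjusted p = 0.067) or CO2 replicate 2 (1.01, limma adjusted p = 0.0535), with the size of the change nearly the same.

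HOX33 (LOC4352777), which is known in rice for delaying leaf senescence, had signals of 6.49 and 5.96 in controls and of 6.53 and 6.92 under CO2. The groups were parted by 0.04. Its log2 fold change of 0.50 had a 95% interval of -0.13 to 1.13 (limma adjusted p = 0.18). HOX29 gave 0.26 at low signal. HOX9 and HOX10, relatives of the Arabidopsis genes for the upper leaf face, gave -0.27 (95% interval -0.81 to 0.27) and 0.08 (95% interval -0.28 to 0.44), and both probe sets of HOX10 gave 0.08 to 2 decimals.

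One order of the samples recurred among HOX genes. CO2 replicate 2 was the highest and control replicate 2 the lowest of the 4 samples in 8 of the 25 HOX genes, beside 9.43% of all genes. These are HOX2, HOX4, HOX6, HOX10, HOX21, HOX28, HOX32 and HOX33. HOX10 had this order on its representative set only. On its other set control replicate 2 was the highest sample (6.06) and control replicate 1 the lowest (5.36). HOX5, HOX7 and HOX12 rose with another order, in which CO2 replicate 1 was the highest sample. The recurring order was noticed in the data and is given as a description.

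Other homeobox families were counted beside the HOX genes. Of 26 measured genes of the HD-Zip IV, KNOX, WOX and HAZ groups 1 rose, 1 fell and 24 did not pass, with a median size of change of 0.16, beside the 12.4% higher and 18.8% lower of all genes. The mean signal was at or above the median of all probe sets in 13 of the 26, against 21 of the 25 HOX genes. WOX8 (also named WOX13), of the WUSCHEL-related family, had signals of 6.35 and 6.62 in controls and of 8.00 and 7.58 under CO2. It rose by 1.30 (SE 0.20, limma adjusted p = 0.0107), with no overlap between the groups, and did not pass without CO2 replicate 1 (1.09, limma adjusted p = 0.0603). HOS59, a KNOX gene, had signals of 12.67 and 12.74 in controls and of 12.13 and 12.28 under CO2, and fell by 0.50 (SE 0.13, limma adjusted p = 0.0403). HOS59 did not pass without CO2 replicate 1 (-0.43, limma adjusted p = 0.126) or CO2 replicate 2 (-0.57, limma adjusted p = 0.0645). The 9 HD-Zip IV genes, known for the epidermis, gave 0 calls in limma's test. The difference in share between HOX and other homeobox genes was not tested.

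With 2 samples per group, each call rests on few data. HOX1, HOX5 and HOX7 still passed when CO2 replicate 1 or CO2 replicate 2 was left out. Without control replicate 1 or control replicate 2, limma called 0 of the 25 HOX genes and 0 of all 17905 genes at the adjusted threshold. At an unadjusted p under 0.05 these fits gave 8 and 6 HOX genes and 5455 and 5141 genes in all. With 1 control left, the estimate of spread rests on the difference between the CO2 samples, and the lone control is assumed to vary like them. With 1 CO2 sample left, it rests in the same way on the difference between the controls. Over all genes the median gap was 0.17 between the controls and 0.23 between the CO2 samples. All 7 called HOX genes kept their direction in every alternative that gave them a value, with log2 fold changes between 1.05 and 1.92 for HOX21 and between -1.69 and -1.39 for HOX1.

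**Figure D4:**
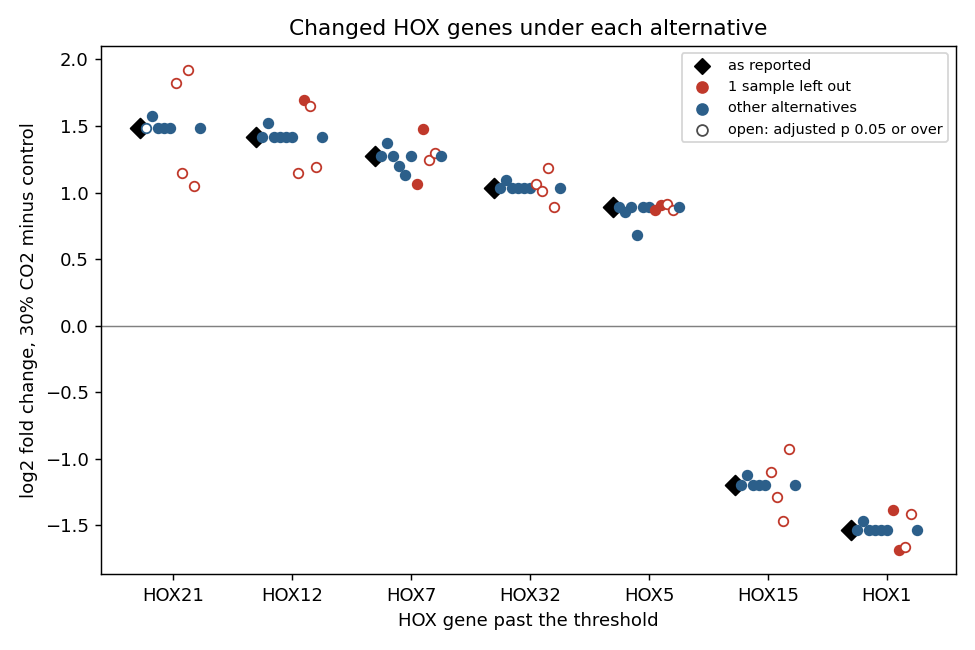
Log2 fold change (y axis, 30% CO2 minus control) of the 7 HOX genes that passed (x axis), as reported (diamond), with 1 sample left out (red) and under the other alternatives (blue). Open symbols did not pass an adjusted p of 0.05. Every point keeps the sign of its diamond, and the red points of HOX21 spread from 1.05 to 1.92.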

How the data were processed

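Biotin-labelled cRNA was made from leaf RNA with Affymetrix kits, and RNA integrity numbers were above 8, per the labels' protocols. The deposited table gives a log2 signal for every probe set in each sample, and the submitters' processing notes name RMA and limma without versions or roles. No rescaling was applied. Of 57194 probe sets 22436 had 1 gene in the array annotation, 34663 are unnamed here, and 95 with several genes were left unnamed. All 17905 genes matched a RefSeq gene table (assembly ASM3414082v1), used for names and neighbours.

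All probe sets entered a two-sided limma fit (version 3.58.1, R 4.3.3; lmFit, eBayes) without a block or a filter. P-values were adjusted over the 17905 genes. The fit had 2 residual degrees of freedom and a prior of 2.85. The labels call the samples biological replicates. The number of arrays limits the precision. Plots were made in Python 3.11.15 with matplotlib 3.10.9.

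The HOX genes and the lists set beside them were chosen with earlier results of these data known. All measured HOX genes were named, and of each other list up to 4 genes past the threshold. RAB16B, RAB21, LEA19, EUI1, HSFA2D and the leaf and root genes fall outside this rule and were chosen after values were seen or for their known role. The planned search of promoters and proteins was not run, as no sequence table was used here. Tested on simulated data, limma recovered 63% of probe sets changed 4-fold and 0% of those changed 2-fold when 200 of 57194 changed, with 4 false calls among 67. With 6583 changed, as many as were called here and by the changes estimated for them, it recovered 80.2%, with 293 false calls among 5571.

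Alternatives were the replicate block, quantile normalization, dim probe sets left out, the mean of a gene's probe sets, sets that can bind several transcripts left out, an intensity trend, and each sample left out.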

Additional observations from a re-analysis of the deposited data

How the results depend on the processing

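HOX counts (5 higher, 2 lower) stayed within 1.5 times under the other alternatives, save those named here. Without probe sets that can bind several transcripts 20 HOX genes were left and 1 fell, as HOX15 has no other set, and 0 dehydration genes fell. With 1 sample left out, the HOX genes called ranged from 0 to 3 higher and 0 to 1 lower, other homeobox genes from 0 to 1 higher and 0 to 1 lower, and dehydration genes from 0 to 3 higher and 0 to 5 lower. Each 0 higher came from leaving out a control, except that other homeobox genes also gave 0 without CO2 replicate 1. Among other homeobox genes the 1 that fell (HOS59) became 0 with dim probe sets left out, with each gene as its probe sets' mean, and with either the replicate block or the crossed one. The numbers shared by the groups are not stated to pair the samples, and deviations of same-numbered samples correlated at -0.10 over all probe sets. The replicate block gave 4 HOX genes higher and 2 lower (1478 and 2188 of all genes, against 2218 and 3369), and HOX21 was the one not passing (limma adjusted p = 0.112). SAPK2 and SAPK8 did not pass with the replicate block either (limma adjusted p = 0.0594 and 0.0967). The crossed pairing, chosen after seeing the data, gave 7 higher and 2 lower. Quantile normalization also gave 7 higher, with HOX6 and HOX28 added. No HOX gene called in any fit changed direction. Where no construction of a setting shows it, the cause was not tested.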
